A study of Mus musculus with 7 samples.

Results

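The genes described here are 41 cytosolic and mitochondrial molecular chaperones with their cofactors. They were chosen by symbol from a fixed list, which was made with earlier results of these data known. Of the 41 symbols, 40 were matched to an Ensembl ID among the 39179 gene IDs of the table, and Hspa14 was not matched and not analysed here. The libraries are bulk RNA-seq of LSK cells, the bone marrow fraction that is negative for lineage markers and positive for Sca-1 and Kit, sorted from C57/BL6 mice aged 7 weeks. Both groups carry the Vav1Cre transgene, which drives Cre recombinase from a promoter active throughout blood cells. The 4 control libraries carry Vav1Cre alone, and the 3 Jmjd1c libraries carry Jmjd1c f/f Vav1Cre, so that only the latter have a floxed Jmjd1c gene for Cre to act on. The labels do not say whether a library is 1 animal or a pool, so the spread that the p-values rest on is the one among these libraries, and it may be technical.

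Chaperones bind proteins that are not yet folded or have lost their fold. Newly made chains pass from J proteins to HSP70, which holds and releases them in an ATP-driven cycle, and on to HSP90 for signalling proteins or to the CCT ring for actin, tubulin and other substrates. Mitochondria have a separate set for imported chains, and the transcription factor HSF1 raises many of these genes after heat or other protein damage. Blood stem cells are known for low protein synthesis and for sensitivity to misfolded protein.

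HSF1 binds heat shock elements, which are inverted repeats of the unit GAA (TTC on the other strand) with 2 free bases between units. Promoter windows of 300 bases ran from 250 before to 50 after the start of transcription. They were taken from RefSeq on GRCm38.p6 and matched 33 of the 41 symbols. Hsf1, Hspa8, Dnajc2, St13, Hsp90aa1, Hsp90ab1, Cct4 and Hspa9 had no window and were not searched. A run of 3 alternating units, searched on both strands, was found in a window of 4 of the 33 matched genes: Hspd1, Hspe1, Hsph1 and Dnajb6. Some genes have several annotated starts. By window, 6 of the 43 chaperone windows (13.95%) held such a run, and 0.6% of all 32851 promoter windows of this length. Overlapping windows count the same run again, as for Hspd1 with Hspe1 and for the starts of Hsph1 and of Dnajb6. Pairs of units (GAANNTTC or TTCNNGAA), which every longer run also contains, were in 16 of the 43 chaperone windows (37.21%, from 14 genes) and in 15.06% of all windows. A match of letters is a description and not a measured binding site, and a window without one says only that these letters are not in it. The 3 windows below, in lower case with the run in capitals, are shown because they hold the longer runs. They are chr1:55087898-55088197 on the plus strand for Hspe1, chr5:149636266-149636565 on the minus strand for Hsph1, and chr5:29735648-29735947 on the plus strand for Dnajb6.
Hspe1: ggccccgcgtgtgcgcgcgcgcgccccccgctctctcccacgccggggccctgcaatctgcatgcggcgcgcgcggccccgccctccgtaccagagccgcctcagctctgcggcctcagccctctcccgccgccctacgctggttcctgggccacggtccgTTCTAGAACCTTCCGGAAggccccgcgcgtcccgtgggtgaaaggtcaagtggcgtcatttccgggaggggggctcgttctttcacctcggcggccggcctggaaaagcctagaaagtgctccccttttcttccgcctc
Hsph1: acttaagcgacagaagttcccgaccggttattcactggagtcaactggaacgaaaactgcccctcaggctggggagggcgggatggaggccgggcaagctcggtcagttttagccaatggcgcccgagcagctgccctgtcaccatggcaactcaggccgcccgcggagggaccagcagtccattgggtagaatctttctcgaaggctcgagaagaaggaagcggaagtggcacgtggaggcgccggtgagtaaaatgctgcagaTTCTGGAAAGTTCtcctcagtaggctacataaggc
Dnajb6: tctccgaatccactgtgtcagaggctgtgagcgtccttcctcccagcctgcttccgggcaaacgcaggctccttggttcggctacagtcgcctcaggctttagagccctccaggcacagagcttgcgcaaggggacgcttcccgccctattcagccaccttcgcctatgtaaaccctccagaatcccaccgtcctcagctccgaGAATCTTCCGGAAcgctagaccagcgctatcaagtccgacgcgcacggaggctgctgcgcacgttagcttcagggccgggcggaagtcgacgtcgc

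In the Hspe1 window the run spans 18 bases and holds 2 overlapping matches of 3 units. The same DNA, read from the other strand, lies in the window of an annotated start of Hspd1. The window of the other annotated start of Hspd1 holds no such run. The genes for the mitochondrial chaperonin and its lid are transcribed away from each other, and their annotated 5' exons share 112 bases. The Hsph1 run lies 15 bases after the start site of the window shown and 36 after that of its other annotated start. For Dnajb6 the run is 46 bases before the start shown and 127 before the other.

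Reads assigned to genes ranged from 4303712 to 6436519 per library. Values below are normalized read counts, that is reads of a gene after scaling by the authors' size factors. Jmjd1c itself, counted over all of its exons, was 458 to 516 in the control libraries and 244 to 294 in the Jmjd1c libraries. Its log2 fold change was -0.89 ± 0.09 (SE, limma adjusted p = 0.00407), and a two-sided exact permutation test gave p = 0.0286, the lowest value possible with 35 arrangements. The 9 genes fixed as LSK markers, among them Kit and Cd34, were all detected and summed to 24175 to 28157 in control and 24984 to 28142 in Jmjd1c libraries. Library Jmjd1c 3 stood apart by sex-linked genes: Xist was 2767 in it and 4.1 to 9.3 in the other 6 libraries, and the Y-linked Ddx3y was 0 in it and 461 to 688 elsewhere. Of the marker sets of other cells, only the summed level of the 7 basophil and mast cell genes did not overlap between groups, at 5686 to 8811 in control and 2204 to 4628 in Jmjd1c libraries (1 of 6 tested genes called lower in limma). The sums of 5 other sets overlapped, with 1 of 7 tested plasma and B cell genes called lower and none of the other 4 sets' genes called. In control and Jmjd1c libraries these sums were 8659 to 18583 and 3364 to 11174 for plasma and B cells, 9889 to 13312 and 6861 to 9894 for mature neutrophils, 2331 to 9307 and 2159 to 3728 for macrophages, 1544 to 1896 and 1572 to 2203 for T and NK cells, and 217 to 535 and 305 to 367 for erythroid cells. Their part in the results below was not tested, and in bulk samples fewer cells of a type and less RNA per cell cannot be told apart.

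Of the 38 chaperone genes that passed a filter on low values, none was called between the groups, which are compared to ask whether loss of Jmjd1c changes LSK cells. The filter kept genes that reached 10 normalized read counts in 3 or more libraries, and left out Hspa1b and Hspb1. The test was limma-trend on log2(value + 1) with Benjamini-Hochberg adjustment over all 12813 genes tested. Of all genes, 1.80% were called at an adjusted p under 0.05, 194 higher and 37 lower in Jmjd1c libraries. The smallest adjusted p of a chaperone gene was 0.077, for Bag6. At an unadjusted p under 0.05 limma gave 8 of 38 chaperone genes, all with the higher mean in Jmjd1c libraries. It gave 19.7% of all genes, 1524 higher and 1005 lower. edgeR's quasi-likelihood test on recovered reads also called 0 of them, where it called 1.82% of all genes, and gave 8 of them an unadjusted p under 0.05, against 19.4% of all genes. DESeq2 called 4 (Hspa1a, Dnajc3, Bag6 and Cdc37, all higher). It called 5.21% of the 11317 genes to which it gave an adjusted p, 473 higher and 117 lower. In limma without Jmjd1c 1 there were also 4 calls, for Hspa4, Dnajc3, Bag6 and Cdc37, where 4.96% of all genes were called.

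Most chaperone genes had the higher mean in Jmjd1c libraries, by small amounts. By library, their median log2 ratio to the control mean was 0.04, 0.05, -0.07 and -0.03 in controls 1 to 4. It was 0.06, 0.14 and 0.05 in Jmjd1c 1 to 3, so Jmjd1c 1 and 3 were close to controls 1 and 2. Fold changes on the log2 scale were above 0 in 31 of the 38 genes and below it in 7 (above 0 in 6208 of all 12813 genes), with a median of 0.08 (1 SD of this median between libraries of a group was 0.055), beside -0.01 for all genes tested. The groups did not overlap in 6 genes, all higher in Jmjd1c (Bag3, Bag6, Dnajb1, Dnajc3, Cdc37 and Cct6a), where 9.74% of all genes had every Jmjd1c library above every control and 7.10% had every one below. For 33 of the 38 genes the 95% interval of the fold change stayed within 1.5-fold in both directions. The 5 whose interval reached past it were Hspa1a, Hspa4, Bag3, Bag6 and Cdc37, all upward.

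**Figure D1:**
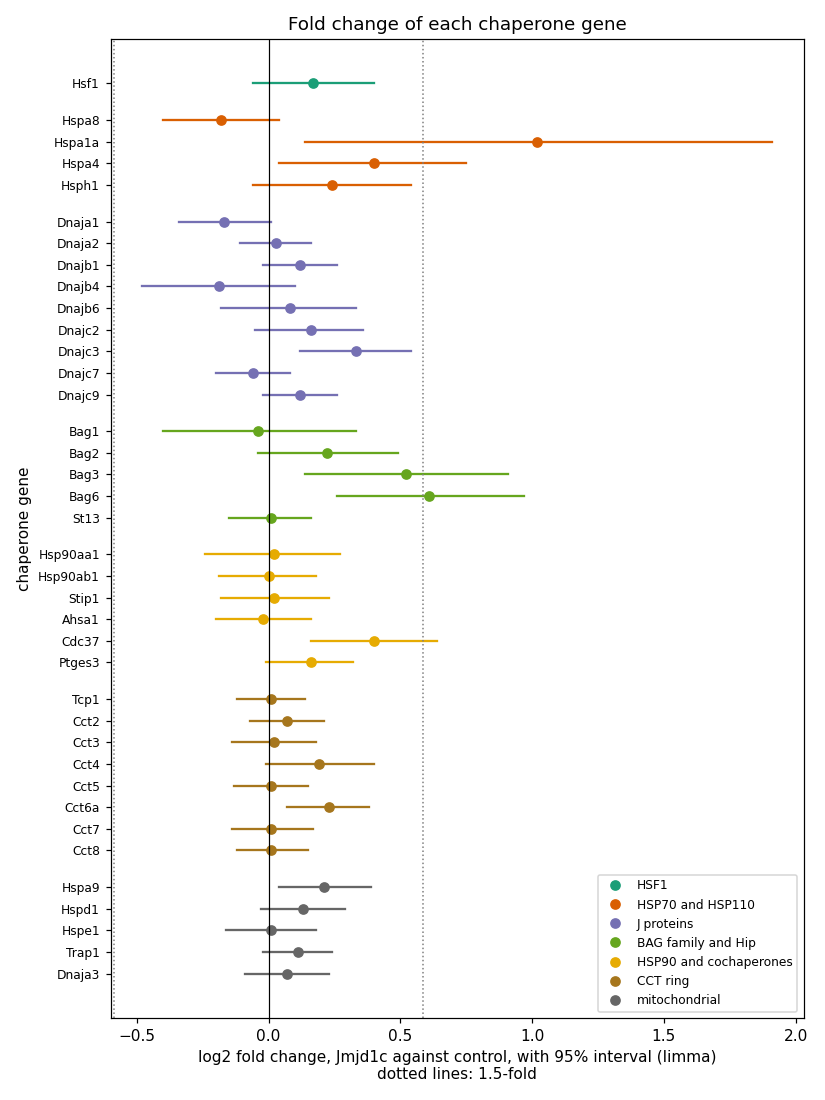
Log2 fold change (Jmjd1c against control, limma on log2(value + 1)) of the 38 chaperone genes tested, by group, with points for the estimate, bars for the 95% interval and dotted lines at 1.5-fold. All 8 CCT ring and all 5 mitochondrial intervals lie within 1.5-fold, and Hspa1a has the widest interval, from 0.14 to 1.91.

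Together the 40 genes took 1.52% to 1.80% of all normalized reads, with the lowest share in Jmjd1c 3 and the highest in Jmjd1c 2. Hspa8 and Hsp90ab1, the constitutive HSP70 and HSP90 of the cytosol, made up 34.7% to 41.3% of that. Levels of different genes are compared per kb of the principal annotated transcript. Per kb in control libraries, Hspa8 was at 7251 ± 686 and Hsp90ab1 at 6623 ± 226 normalized reads (SD, n = 4), and these neighbours in the order do not differ beyond their spread. Cct5 followed at 2915 ± 135, ahead of Cct7 at 1380 ± 61.6. The inducible forms were far below: Hspa1a was at 8.89 ± 2.76 and Hspa1b at 3.88 ± 2.77. The cofactors Bag6 (26.4 ± 5.03) and Bag3 (22.5 ± 3.03) were also low. For Cdc37 the annotated transcript is 7851 bases and for Dnaja1 5622 bases, mostly untranslated, and a shorter form in these cells would raise their level per kb.

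**Figure D2:**
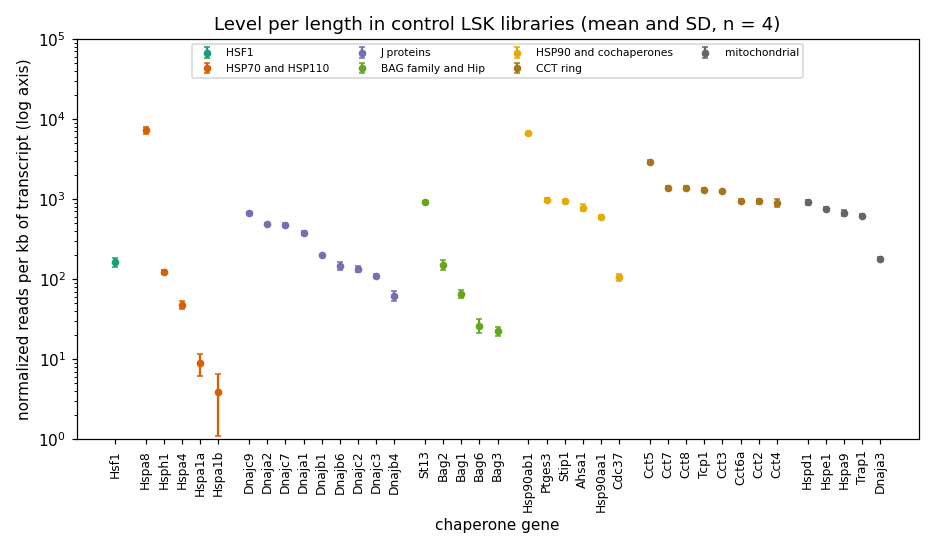
Normalized reads per kb of principal transcript (log axis) of 39 chaperone genes in the 4 control libraries, points for the mean and bars for the SD, coloured by group; Hspb1 had 0 reads in control and is not drawn. Hspa8 and Hsp90ab1 stand at 7251 and 6623, and the 8 CCT subunits lie between 904 and 2915.

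Hsf1, the regulator of the heat shock response, was 392, 349, 316 and 302 normalized read counts in controls 1 to 4 and 367, 426 and 355 in Jmjd1c 1 to 3. The groups overlapped, with the highest value in Jmjd1c 2. On the log2 scale the difference was 0.17 ± 0.11 (limma, adjusted p = 0.386). Hspb1, the small heat shock protein that keeps damaged proteins soluble, had 3 reads in Jmjd1c 2 and none in the other 6 libraries.

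Among the cytosolic HSP70 proteins and the HSP110 exchange factors, 0 of 4 tested genes were called and 3 had the higher mean in Jmjd1c libraries (median log2 fold change 0.32). Hspa8 was 15742, 18876, 16152 and 18668 in controls 1 to 4 and 16073, 16973 and 13040 in Jmjd1c 1 to 3. Only Jmjd1c 3 lay below the control range. For Hspa8 the log2 fold change came to -0.18 ± 0.10 (limma, adjusted p = 0.339, 95% interval -0.40 to 0.04), and -0.07 without Jmjd1c 3.

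The heat-inducible Hspa1a (chromosome 17, 34969190 to 34972156, mm10) was 20.0, 30.2, 36.1 and 19.2 in controls 1 to 4 and 29.8, 116 and 42.3 in Jmjd1c 1 to 3. Jmjd1c 2 was the highest library, with 113 reads against 22 to 36 in the others. By normalized read counts Jmjd1c 3 also lay above every control, and Jmjd1c 1 lay inside the control range. With all libraries the log2 fold change was 1.02 ± 0.40 (limma, adjusted p = 0.195), and 0.46 without Jmjd1c 2. Its neighbour Hspa1b, which lies 9951 bases away on the same strand of chromosome 17, held 2 to 19 reads per library: 6.4, 9.7, 22.1 and 5.2 in controls 1 to 4 and 4.1, 17.5 and 2.3 in Jmjd1c 1 to 3. Hspa1b was highest in control 3 and overlapped between groups. Over their coding sequences Hspa1a and Hspa1b are 99.6% identical, so reads from either gene can be lost or assigned to the other, and both values are uncertain. By comparison Hsp90aa1 and Hsp90ab1 are 76.6% identical. Hspa1a also shares 19.0% of its exon bases with Gm20481 on the opposite strand, and the strand setting of the counting is not given in the sources used here.

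Hspa4, which helps HSP70 release ADP, was 215, 196, 228 and 254 in controls 1 to 4 and 220, 297 and 384 in Jmjd1c 1 to 3. Jmjd1c 2 and 3 were above all controls and Jmjd1c 1 was among them. For Hspa4 the log2 fold change came to 0.40 ± 0.16 (limma, adjusted p = 0.21). It was 0.20 without Jmjd1c 3, and 0.60 and called without Jmjd1c 1 (adjusted p = 0.0343). Its relative Hsph1 was 478, 499, 424 and 466 in controls and 463, 732 and 488 in Jmjd1c 1 to 3. Only Jmjd1c 2 stood outside the control range, and the log2 fold change of 0.24 ± 0.14 (limma, adjusted p = 0.361) became 0.03 without it.

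J proteins deliver clients to HSP70 and trigger its ATPase. Of the 9 tested, none was called, 6 had the higher and 3 the lower mean in Jmjd1c libraries, and all 9 intervals stayed within 1.5-fold (median 0.08). Dnajc3, which belongs to the J proteins but works in the endoplasmic reticulum and inhibits the stress kinase PERK, was 597, 540, 555 and 579 in controls 1 to 4 and 602, 742 and 814 in Jmjd1c 1 to 3. All 3 Jmjd1c libraries were above the controls, Jmjd1c 1 only just. For Dnajc3 the log2 fold change came to 0.33 ± 0.10 (limma, adjusted p = 0.0973). Dnajb1, the partner of HSP70 that is induced with it after heat, was 574, 610, 590 and 614 in controls and 624, 655 and 665 in Jmjd1c 1 to 3. The groups did not overlap, but the log2 fold change was only 0.12 ± 0.06 (limma, adjusted p = 0.336).

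Dnaja1, a farnesylated J protein of the cytosol, was 1999, 2247, 1994 and 2269 in controls 1 to 4 and 1940, 2048 and 1697 in Jmjd1c 1 to 3. Jmjd1c 1 and 3 lay below all controls, and the difference was -0.17 ± 0.08 on the log2 scale (limma, adjusted p = 0.268). Dnajc9, a histone chaperone as well as a J protein, was 1080, 1154, 1074 and 1063 in controls and 1248, 1183 and 1127 in Jmjd1c 1 to 3. Jmjd1c 3 lay inside the control range, and the log2 fold change was 0.12 ± 0.06 (limma, adjusted p = 0.324). The other 5 had log2 fold changes of -0.19 (Dnajb4), -0.06 (Dnajc7), 0.03 (Dnaja2), 0.08 (Dnajb6) and 0.16 (Dnajc2, a ribosome-bound J protein), with adjusted p from 0.373 to 0.845 in limma.

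Several BAG proteins bind HSP70 and promote release of its client, and Hip (St13) slows that release. Of the 5 BAG and Hip genes none was called, and the median log2 fold change was 0.22. Bag6 (chromosome 17, 35135178 to 35147322, mm10), which guards hydrophobic segments before membrane insertion or degradation, was 118, 120, 81.6 and 89.2 in controls 1 to 4 and 132, 174 and 160 in Jmjd1c 1 to 3. Every Jmjd1c library lay above every control. For Bag6 the log2 fold change came to 0.61 ± 0.16, between 0.51 and 0.72 without each library in turn (limma, adjusted p = 0.077, and 0.0492 without Jmjd1c 1).

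Bag3, which directs clients to autophagy, was 64.8, 60.3, 46.6 and 58.6 in controls 1 to 4 and 69.5, 82.4 and 98.6 in Jmjd1c 1 to 3. The groups did not overlap, and the log2 fold change was 0.52 ± 0.18 (limma, adjusted p = 0.139). Bag2, an inhibitor of the ubiquitin ligase that acts on HSP70 clients, was 340, 267, 255 and 268 in controls and 310, 381 and 299 in Jmjd1c 1 to 3. Control 1 lay among the Jmjd1c libraries, and the log2 fold change was 0.22 ± 0.12 (limma, adjusted p = 0.322). Bag1 (-0.04) and St13 (0.01) had means near those of the controls, with intervals of -0.40 to 0.33 and -0.15 to 0.16.

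None of the 6 genes of the HSP90 machinery was called (median log2 fold change 0.02), and several of them were split inside the Jmjd1c group. Hsp90ab1 was 16330, 17538, 16487 and 16403 in controls 1 to 4 and 17380, 18443 and 14343 in Jmjd1c 1 to 3. Jmjd1c 2 lay above and Jmjd1c 3 below every control. Its mean difference on the log2 scale was 0.00 ± 0.08, with a 95% interval of -0.19 to 0.18 (limma, adjusted p = 0.982). Hsp90aa1, the inducible cytosolic HSP90, followed the same order: 1942, 1923, 1857 and 2126 in controls and 2073, 2391 and 1571 in Jmjd1c 1 to 3. Stip1, which bridges HSP70 and HSP90, was 2050, 2061, 1919 and 2009 in controls and 2093, 2382 and 1711 in Jmjd1c 1 to 3. Each had its highest value in Jmjd1c 2 and its lowest in Jmjd1c 3, and for each the mean difference on the log2 scale was 0.02 (limma, adjusted p = 0.952 for Hsp90aa1 and 0.913 for Stip1). Without Jmjd1c 2 these were -0.12 and -0.09, and without Jmjd1c 3 they were 0.18 and 0.15.

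Cdc37 (chromosome 9, 21133222 to 21149982, mm10), which loads protein kinases onto HSP90, was 891, 908, 754 and 774 in controls 1 to 4 and 928, 1080 and 1303 in Jmjd1c 1 to 3. Unlike Hsp90aa1 it was highest in Jmjd1c 3, and the groups did not overlap. For Cdc37 the log2 fold change came to 0.40 ± 0.11, from 832 ± 78.9 to 1104 ± 189 (SD, n = 4 and 3; limma, adjusted p = 0.0862). It was 0.27 without Jmjd1c 3, and 0.52 and called without Jmjd1c 1 (adjusted p = 0.0239). Ptges3, the p23 cochaperone that steadies closed HSP90, was 2116, 1962, 1829 and 1898 in controls and 2102, 2401 and 2025 in Jmjd1c 1 to 3. Only Jmjd1c 2 exceeded every control, and the log2 fold change was 0.16 ± 0.07 (limma, adjusted p = 0.28). Ahsa1, which stimulates the HSP90 ATPase, was 1043, 1227, 990 and 1060 in controls and 1046, 1150 and 991 in Jmjd1c 1 to 3. All 3 Jmjd1c values lay inside the control range, and the log2 fold change was -0.02 ± 0.08 (limma, adjusted p = 0.912).

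**Figure D3:**
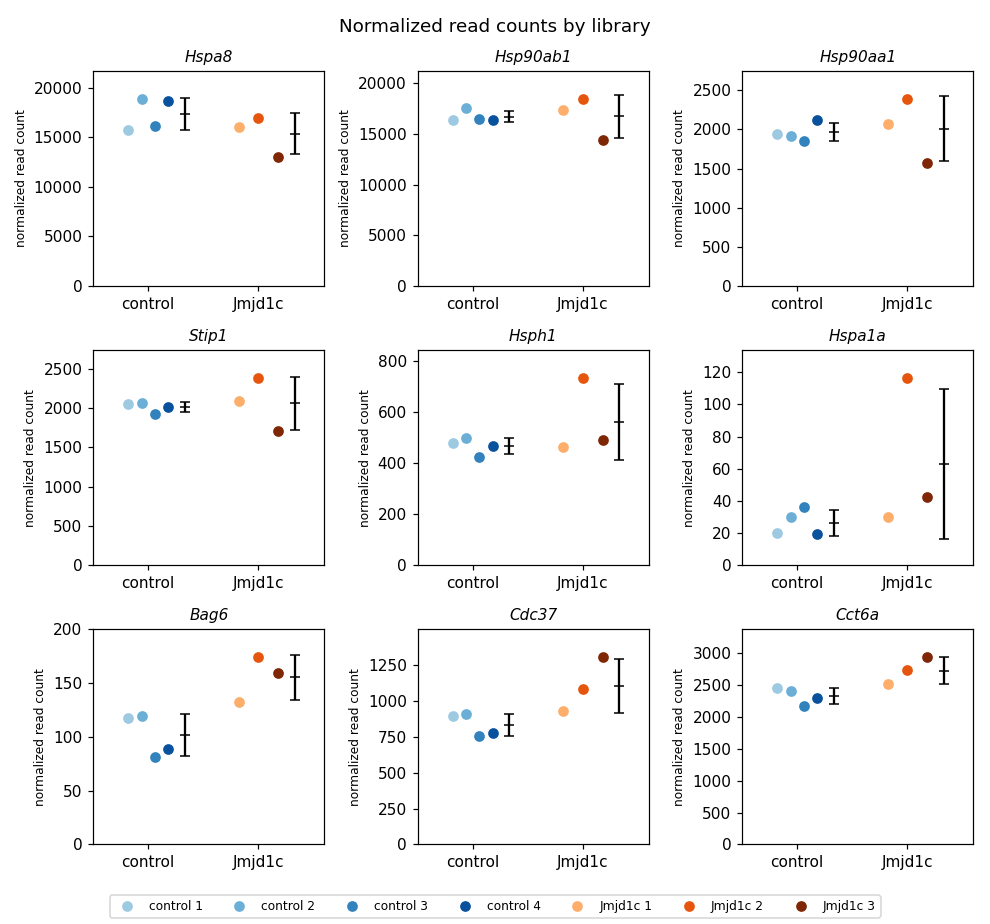
Normalized read counts of 9 chaperone genes in each library (points, axes from 0), with the group mean and SD as bars beside them, n = 4 control and 3 Jmjd1c. Jmjd1c 2 is highest and Jmjd1c 3 lowest for Hsp90ab1, Hsp90aa1 and Stip1. Jmjd1c 2 is also highest for Hsph1 and Hspa1a, and the groups do not overlap for Bag6, Cdc37 and Cct6a.

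The CCT ring is built from 8 different subunits in equal number. None was called, and 6 of the 8 had log2 fold changes between 0.01 and 0.07. Tcp1, Cct5 and Cct8, each at 0.01, had 95% intervals of -0.12 to 0.14, -0.13 to 0.15 and -0.12 to 0.15, and Cct3 (0.02) and Cct7 (0.01) had -0.14 to 0.18 and -0.14 to 0.17. The highest fold that these 5 intervals reach is 1.14, for Cct3. Cct2 was 1999, 1836, 1779 and 1719 in controls 1 to 4 and 1894, 1984 and 1886 in Jmjd1c 1 to 3. All Jmjd1c values lay inside the control range (log2 fold change 0.07 ± 0.06, limma adjusted p = 0.586).

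Cct6a was 2455, 2411, 2167 and 2291 in controls 1 to 4 and 2510, 2740 and 2938 in Jmjd1c 1 to 3. The groups did not overlap, and the log2 fold change was 0.23 ± 0.07 (limma, adjusted p = 0.118). Cct4 was 2460, 2419, 1913 and 2187 in controls and 2310, 2597 and 2774 in Jmjd1c 1 to 3. Jmjd1c 2 and 3 were above all controls, and the log2 fold change came to 0.19 ± 0.09 (limma, adjusted p = 0.283). These were the subunits highest in Jmjd1c 3, where the ring as a whole had a median log2 ratio to the control mean of -0.02, beside 0.13 in Jmjd1c 2 and 0.03 in Jmjd1c 1. Cct6a shares 12.5% of its exon bases with Psph on the opposite strand (Tcp1 shares 11.4% with Acat3), so without a known strand setting some of its reads may be from that gene.

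Of the 5 mitochondrial chaperones all had the higher mean in Jmjd1c libraries, by a median of 0.11, and none was called. Hspa9, the matrix HSP70 that pulls in imported proteins, was 2247, 2200, 1864 and 1932 in controls 1 to 4 and 2211, 2509 and 2426 in Jmjd1c 1 to 3. Jmjd1c 1 lay inside the control range, and the log2 fold change was 0.21 ± 0.08 (limma, adjusted p = 0.179). Trap1, the mitochondrial HSP90, was 1468, 1501, 1394 and 1397 in controls and 1574, 1590 and 1499 in Jmjd1c 1 to 3. Jmjd1c 3 fell just below control 2, and the log2 fold change was 0.11 ± 0.06 (limma, adjusted p = 0.321).

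Hspd1, the chaperonin HSP60, was 2294, 2328, 2020 and 2155 in controls 1 to 4 and 2294, 2637 and 2292 in Jmjd1c 1 to 3. Only Jmjd1c 2 exceeded the controls, and the log2 fold change was 0.13 ± 0.07 (limma, adjusted p = 0.351). Hspe1, its lid HSP10, was 614, 591, 576 and 566 in controls and 609, 641 and 531 in Jmjd1c 1 to 3. Its groups overlapped, with Jmjd1c 2 highest and Jmjd1c 3 lowest, and the difference was 0.01 ± 0.08 on the log2 scale (limma, adjusted p = 0.946). Both genes have processed pseudogenes, of which those in the table reached at most 17.5 normalized read counts (Hspd1-ps3) and 4.4 (Hspe1-ps2). Among named pseudogenes of all chaperone genes the highest was Ptges3-ps, at 82.7, beside 1829 to 2401 for Ptges3. For Dnaja3, the mitochondrial J protein, the log2 fold change came to 0.07 ± 0.07. The 4 genes with a run of 3 heat shock units in a promoter window had log2 fold changes from 0.01 to 0.24 (median 0.11). The 26 other tested genes with a window had a median of 0.07.

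Library Jmjd1c 2 had the highest value of the 7 libraries for 18 of the 38 chaperone genes and the lowest for 0, whereas over all genes tested it was highest for 14.8% and lowest for 17.3%. Jmjd1c 3 was highest for 9 and lowest for 12, beside 22.1% and 18.9% of all genes, and control 3 was lowest for 13 (16.6% of all genes). In Jmjd1c 2 the summed level of 18 immediate early genes, which respond within minutes to stress and handling, was 2815, against 1850 to 2436 in control and 2045 and 2059 in the other Jmjd1c libraries. Of the 18 genes, 6 had their highest value in Jmjd1c 2 (Fos, Jun, Ier2, Dusp1, Zfp36 and Klf4) and 1 its lowest (Klf6). Control 4 and Jmjd1c 3 were each highest for 4 of the 18, control 3 for 3 and control 2 for 1. Among genes chosen after their values were seen, Fos was 244 in Jmjd1c 2 against 70.4 to 133 elsewhere. Jun was 451 in Jmjd1c 2 against 126 to 237, whereas Egr1 was 19.6 against 12.4 to 42.0 and Atf3 14.4 against 9.6 to 62.1. Their part in the chaperone values of that library was not tested. Without Jmjd1c 2 the median log2 fold change of the chaperone genes was 0.05, and without Jmjd1c 3 it was 0.12, with 0 genes called in both in limma. In each of these fits 7 chaperone genes had an unadjusted p under 0.05, against 13.2% of all genes without Jmjd1c 2 and 13.7% without Jmjd1c 3.

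**Figure D4:**
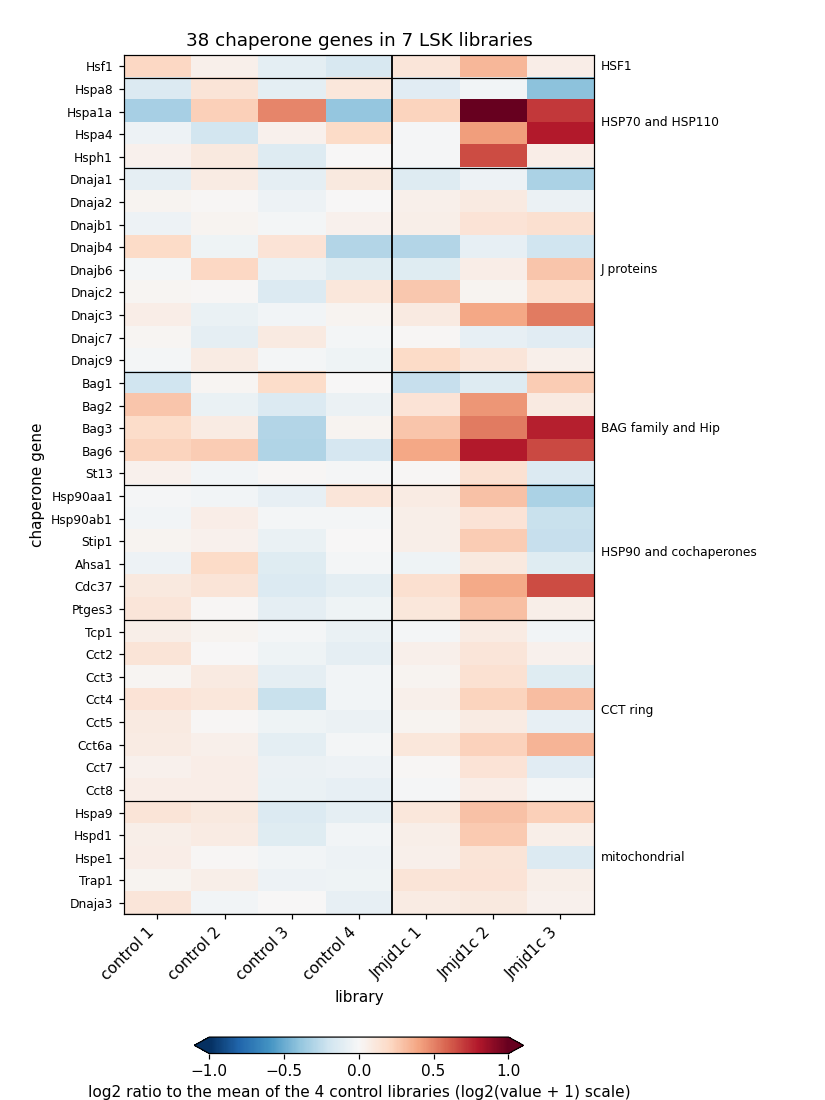
Log2 ratio of each of 38 chaperone genes (rows, by group) to the mean of the 4 control libraries, in each of 7 libraries (columns), red for higher and blue for lower, with colours saturated beyond 1. The Jmjd1c 2 column is red for most rows, while the Jmjd1c 3 column is blue for Hspa8, Dnaja1 and the HSP90 genes and red for Hspa4, Bag3, Bag6 and Cdc37.

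Chaperone genes also differed more among the Jmjd1c libraries than among the controls. Their median coefficient of variation was 6.4% in control and 9.2% in Jmjd1c libraries, and 26 of the 38 genes had the larger one in Jmjd1c. Over all genes tested the medians were 11.1% and 10.6%, and 46.9% had the larger one in Jmjd1c. Limited to genes with a mean of at least 500 normalized read counts, the larger value was in Jmjd1c for 20 of 27 chaperone genes and for 46.6% of 2530 genes. The groups have 4 and 3 libraries and Jmjd1c 3 alone differs by sex-linked genes, so no test was made.

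Fold changes of the chaperone genes went with the GC content of their transcripts. Across the 38 genes, which share the same 7 libraries and are not independent, Pearson's r between fold change (log2) and the GC content of the longest annotated transcript was 0.57, or 0.46 without Hspa1a, beside 0.264 across the 12677 tested genes with an annotated transcript. Bag6 (59.9% GC), Hspa1a (58.9%) and Bag3 (56.1%) were the 3 richest in GC of the 38 and had the 3 largest fold changes, while the median chaperone gene had 47.2%. Each library was then corrected for GC content and length. Log2 fold changes went from 0.61 to 0.36 for Bag6, from 1.02 to 0.81 for Hspa1a and from 0.52 to 0.40 for Bag3. They went from 0.40 to 0.35 for Cdc37 and from 0.33 to 0.37 for Dnajc3. The median of the 38 genes went from 0.08 to 0.10, and none of the 38 was called in limma. At an unadjusted p under 0.05 there were then 14 of them, against 17.7% of all genes.

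**Figure D5:**
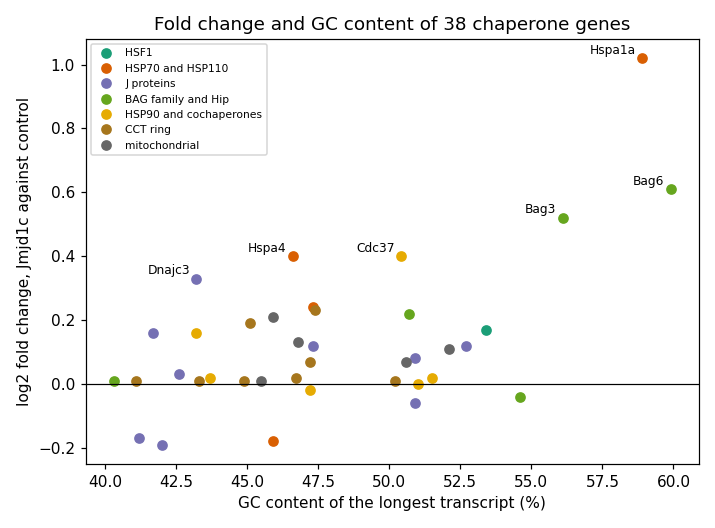
Log2 fold change (Jmjd1c against control) of 38 chaperone genes against the GC content of their longest annotated transcript in percent, coloured by group, with genes beyond 0.3 named. Hspa1a, Bag6 and Bag3 lie at the right with the largest fold changes, while Hspa4, Cdc37 and Dnajc3 reach 0.33 to 0.40 at 43.2% to 50.4% GC.

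The wider chaperone network was read from a list of 96 other genes, all found in the table. Of the 82 tested none was called in limma, and 47 had the higher and 35 the lower mean in Jmjd1c libraries (median log2 fold change 0.02). At an unadjusted p under 0.05 there were 13 of the 82, against 19.7% of all genes. edgeR called none, against 1.82% of all genes, with 13 at an unadjusted p under 0.05, against 19.4% of all genes. DESeq2 called 3, all higher: Afg3l1, Fkbp4 and Nudc (adjusted p = 0.0331, 0.0088 and 0.0399). It called 5.21% of the genes to which it gave an adjusted p, 473 higher and 117 lower. The smallest adjusted p was that of Afg3l1, a subunit of a mitochondrial inner membrane protease, which went from 346 ± 10.6 to 443 ± 45.4 (log2 fold change 0.35 ± 0.08, limma adjusted p = 0.0576). Next was Fkbp4, an HSP90 cochaperone of steroid receptors, which went from 1787 ± 132 to 2235 ± 218 (0.32 ± 0.08, limma adjusted p = 0.0609). In both genes every Jmjd1c library lay above every control. Of the 82 genes, 5 had every Jmjd1c library above every control and 4 had every one below. Over all genes tested these shares were 9.74% and 7.10%. The other HSP90 cochaperones and the R2TP assembly complex had a median of 0.12 over 14 tested genes, with Ruvbl2, a helicase of R2TP, at 0.22 (limma, adjusted p = 0.112).

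Among 13 tested genes of prefoldin and CCT helpers, which hand clients to the ring, 8 had the lower mean in Jmjd1c (median -0.04), with Pfdn5 at -0.22 and Txndc9 at -0.15 (limma, adjusted p = 0.119 and 0.23). The 24 other J proteins had a median of 0.06, with Gak, which strips clathrin coats, at 0.32 and Dnajb12 at 0.27 (limma, adjusted p = 0.113 and 0.213). The 9 other HSP70 relatives and exchange factors had a median of 0.00, with the exchange factor gene Hspbp1 at 0.21 and the ubiquitin ligase gene Stub1 at 0.11 (limma, adjusted p = 0.153 and 0.459). The 14 mitochondrial cofactors and proteases had a median of 0.07, with the matrix protease gene Lonp1 at 0.52 ± 0.17 (0.35 without Jmjd1c 3, limma adjusted p = 0.139). In the 5 other heat shock factors and small heat shock proteins the median was -0.11, with Hsbp1, which binds HSF1, at -0.11 and Cryab, at 13.4 normalized read counts in control, at -0.63 (limma, adjusted p = 0.335 and 0.37). The 3 genes for chaperones of nascent chains at the ribosome had negative values, with Btf3l4 at -0.20 and Naca at -0.09 (limma, adjusted p = 0.315 and 0.448).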

How the data were processed

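The deposited table holds 1 signal per gene and library, which are read counts divided by a size factor by the authors, not raw counts. Trim Galore 0.2.8, STAR, HTSeq 0.6.1p1, DESeq 1.18.0 and build mm10 are named, per the submitters' processing notes, and the libraries were made with Trizol and an ultra-low-input SMARTer kit, per the labels' protocols. The annotation release, strand setting and filters: not given in the sources used here. Values within a library are whole multiples of 1 step, and dividing by it gave whole reads for 100% of values above 0 (tolerance 0.01 of a read). Symbols matched 37607 of 39179 IDs, and positions, lengths and GC content came from GENCODE M21 (GRCm38, the assembly of mm10).

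The test was limma-trend (limma 3.58.1, R 4.3.3) on log2(value + 1), which understates the change of low genes, over the 12813 genes that reached 10 in 3 or more libraries, 4 control against 3 Jmjd1c, with no covariate. Benjamini-Hochberg adjustment ran over those genes, with a threshold of 0.05. The error of a log2 fold change is its standard error, and 95% intervals use limma's 11.45 total degrees of freedom. A 1-unit pseudocount was used throughout. The limma fit was tested on simulated data, with 100 genes changed 1.5-fold and 100 changed 2-fold. It called 59% of the former and 76% of the latter in the right direction, so it missed part of such changes. Of its calls, 6.25% were unchanged genes. Alternatives were other pseudocounts, filters, scalings, weights and variance models, edgeR 4.0.16 and DESeq2 1.42.0 on recovered reads, a replicate block, a correction for GC content and length, a threshold of 0.1, and leaving out each library.

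The members, lists and groups were chosen with earlier results of these data known. Values in every library are given for the 3 smallest p-values of each group and for 10 genes fixed by name, and from the other lists the 2 smallest p-values. Stip1 and the pseudogenes were added after their values were seen.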

Additional observations from a re-analysis of the deposited data

Results flagged for a closer look

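Among the 4 control libraries, 1 library stood far from the other 3 for 2 of the 38 chaperone genes tested. Bag2 was 340 in control 1 and 255 to 268 in controls 2 to 4, and the gap was 0.844 of the whole range, above Dixon's 95% critical value for 4 samples. Hsp90ab1 was 17538 in control 2 and 16330 to 16487 in the others, a gap of 0.87 of the range. Chance alone flags about 1 in 20 such groups, so 2 of 38 is near that share.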

How the results depend on the processing

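For the chaperone genes called (0 in limma), DESeq2 gave 4, an adjusted p threshold of 0.1 gave 3, and leaving out each library gave 0 to 4. The other pathway genes called (0) became 1 without a filter on low values (Hspb8, 2.79, at most 12.9 normalized read counts), 3 in DESeq2, 2 at the threshold of 0.1 and 0 to 4 without each library. Of all genes, 231 were called. That count was 590 in DESeq2, 716 at the threshold of 0.1, 40 once libraries were corrected for GC and length, and 0 without limma's intensity trend (2213 at an unadjusted p under 0.05). It ran from 3 (without control 2, control 3 or Jmjd1c 2) to 631 (without Jmjd1c 1), and was 72 without control 1 and 9 without Jmjd1c 3. The cause of these changes was not tested. The Jmjd1c gene's log2 fold change stayed at -0.89 without the trend but did not pass (limma, adjusted p = 0.117), and was -0.97 to -0.83 without each library. The median of the chaperone genes ran from 0.05 to 0.12 in every alternative.

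Same-numbered libraries of the 2 groups did not deviate together (correlations -0.152, -0.002 and 0.017). The highest correlation of other pairs was 0.315, for control 4 with Jmjd1c 1. Deviations from a group mean cancel within each group, so these values cannot settle whether the numbers pair the libraries. With the replicate block on replicates 1 to 3, 15 genes and 0 chaperone genes were called, and with the block and the GC and length correction 44 and 0.

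Of 797 refits of single chaperone genes, 751 kept their direction and their side of the threshold, 8 in 5 genes became called and 38 in 14 genes turned direction, all of genes within 0.08 of 0 in the limma fit. Hsp90ab1, at -0.00, had 0.13 under quantile normalization and 0.04 with array weights. Ahsa1 had 0.05 under the GC and length correction and 0.04 with it and the replicate block. Tcp1, Cct5 and Cct8 had -0.01 with the replicate block and -0.01 in replicates 1 to 3 unpaired. Without each library Dnaja2 ran from -0.01 to 0.07, Dnajb6 from -0.03 to 0.17, Bag1 from -0.18 to 0.06, St13 from -0.07 to 0.08, Hsp90aa1 from -0.12 to 0.18, Hsp90ab1 from -0.08 to 0.10, Stip1 from -0.09 to 0.15, Ahsa1 from -0.08 to 0.04, Tcp1 from -0.02 to 0.03, Cct3 from -0.04 to 0.09, Cct5 from -0.02 to 0.06, Cct7 from -0.05 to 0.08, Cct8 from -0.01 to 0.04 and Hspe1 from -0.04 to 0.09. Depth limits Hspb1 and Hspa1b most, with at most 3 and 19 reads in a library, then Bag1, Bag3 and Hspa1a with at most 80, 84 and 113.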
